A study of Drosophila melanogaster with 6 samples.

Results

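The histone genes of the fly genome were followed in RNA-seq libraries of adult brain, in which 115 of the 16725 rows of the count table were members of the set. Rows named His1, His2A, His2B, His3 or His4 with a copy identifier after a colon, 111 in all, were taken as canonical histone genes. His2Av, His3.3A, His3.3B and His4r, 4 genes, were taken as replacement histone genes. The rule picks rows by name and uses no measured value, but the histone set as a subject was chosen with earlier results of these data known.

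The 4 libraries came from brains of 5-day-old adult flies, with about 15 pooled brains in each sample, and the study kept Canton-S stocks, a wild-type strain. No transgene, mutation or drug is named for any of the libraries, so the groups share genotype and age. They differ in how rRNA was avoided and, per the study's methods, in the amount of total RNA used, which was larger for depletion. In the libraries labelled polyA-enriched, 1 and 2, RNA with a polyA tail was selected. In the libraries labelled rRNA-depleted, 1 and 2, DNA probes were hybridized to rRNA and the hybrids were digested with RNase H. Total RNA was split between both preparations, and the libraries were sequenced in pairs of 100-base reads. Libraries of S2 cells, a cultured fly cell line, also belong to the series and were not analysed here.

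Canonical histones package newly copied DNA. Their genes lie in a tandem array, are transcribed during S phase and have no introns, and their mRNAs end in a stem-loop instead of a polyA tail. The stem-loop is bound by Slbp, and the end is cut with the help of the U7 small nuclear RNA. Replacement histones are made throughout the cell cycle and also in cells that no longer divide, from genes with introns and polyadenylated mRNAs. H3.3, encoded by His3.3A and His3.3B, is laid down at transcribed chromatin, His2Av combines the roles of H2A.Z and H2A.X, and His4r encodes the same protein as the canonical H4 genes. Most neurons of the adult brain have left the cell cycle. The comparison of both preparations therefore bears on 2 classes of mRNA that differ in whether they carry a tail.

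Total counts per library ran from 11838449 to 14295047, so that 3 counts, the limit that a count of 0 allows, corresponded to 0.21 to 0.253 CPM, that is, counts divided by the total count of the library in units of 1000000. The 95% Wilson intervals given with CPM values cover counting error only. Neuronal markers were abundant in every library, as a brain sample should show. Their summed level was 12945 and 12128 CPM in rRNA-depleted 1 and 2, and 10927 and 10151 CPM in polyA-enriched 1 and 2, without overlap. Of the 9 markers, none was called between the labels with the replicate block described below. The median log2 fold change of these markers was 0.33 with the block, beside 0.04 over all genes tested. Many markers of other tissues were lower under the rRNA-depleted label: 10 of 12 photoreceptor, 6 of 6 fat body and 5 of 5 tested muscle markers were called lower with the block, beside 12.1% of all genes tested. Summed fat body markers, for example, were at 1170 and 2356 CPM in the rRNA-depleted libraries against 15076 and 13743 CPM in the polyA-enriched libraries. The muscle marker Act57B held 2 and 9 counts in the rRNA-depleted and 542 and 383 in the polyA-enriched libraries. It was tested only through its counts in the polyA-enriched libraries, which fixes the direction of its change.

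Nearly all canonical histone rows were empty. Of the 111 rows, 110 held 0 counts in all 4 libraries. These were all 23 His1 rows, all 20 His2A rows, 22 of 23 His2B rows, all 23 His3 rows and all 22 His4 rows. The exception was His2B:CG33868, 1 copy of the gene for core histone H2B, which held 0 counts in rRNA-depleted 1 and 66 in rRNA-depleted 2. The polyA-enriched libraries held 1 count (number 1) and 36 counts (number 2). Both libraries numbered 2 thus held reads of this copy, and both libraries numbered 1 held 1 read at most. No canonical row was counted in the rRNA-depleted libraries that was not also counted in a polyA-enriched library.

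Over all rows of the table, 2949 of 16725 (17.6%) were 0 in all 4 libraries, and over protein-coding rows other than canonical histones 1759 of 13665 (12.9%) were. Of 3042 other protein-coding rows with the exon lengths of canonical genes, 412 to 1023 bp, 800 (26.3%) were empty, and of the 877 with a single exon 320 (36.5%) were. A read that fits several copies equally well can be left out by an aligner or counter, and the setting used for such reads is not given in the sources used here. An empty canonical row therefore says that no read was assigned to that copy. It cannot be told apart from reads that were sequenced and not assigned, and it sets no limit on canonical histone mRNA in these brains.

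All 111 rows matched an annotated gene in the array on chromosome 2L (positions 21416953 to 21541681 of the BDGP6.54.115 annotation, on the same assembly release as dm6, a span of 125 kb). All are single-exon genes. His1, which encodes the linker histone, is the longest at 1023 bp, His2B measures 595 bp, His3 529 bp, His2A 476 to 493 bp and His4 412 to 528 bp. His1, His2A and His3 rows are on the plus strand, and His2B and His4 rows on the minus strand. The annotated 3′ UTR of the His2B copies, 177 bp, is the longest of the array, beside 93 bp for His1, 66 bp for His2A and 61 bp for His3.

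**Figure D1:**
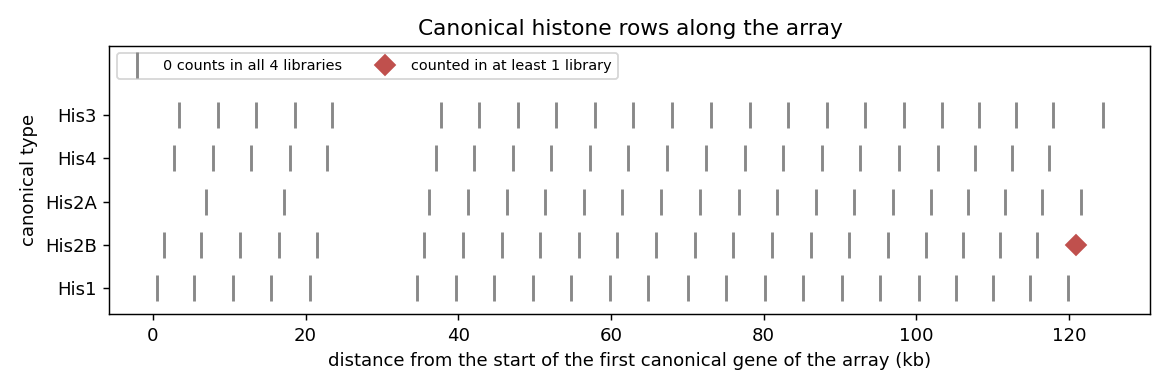
Canonical histone rows by type (vertical axis) and distance in kb from the start of the first canonical gene (horizontal axis). Grey ticks are the 110 rows with 0 counts in all 4 libraries, and the red diamond is the only counted row, the last His2B copy near the right end of the array.

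The counted copy stood at the end of the array. His2B:CG33868 (2L, 21537505 to 21538099, minus strand) is the last of the 23 His2B copies in order along the chromosome and number 109 of the 111 canonical genes, with 2 canonical genes after it. Its neighbours are His1:CG33864, 136 bp away, and His2A:CG33865, 128 bp away, and both were empty. His2B copies start at a median distance of 5045 bp from each other. The annotation also holds 8 histone pseudogenes, none of which is a row of the count table. Its length and its 3′ UTR length equal those of the other 22 His2B copies, so neither sets it apart from them.

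In CPM, His2B:CG33868 was at 0 (at most 0.269) and 5.44 (4.27 to 6.91) in rRNA-depleted 1 and 2. It was at 0.0724 (0.0128 to 0.41) and 3.04 (2.2 to 4.21) in polyA-enriched 1 and 2. The value in rRNA-depleted 2 was 1.79-fold that in polyA-enriched 2, with an exact counting interval of 1.17 to 2.76. That ratio compares those 2 libraries and not the preparations, since the pair numbered 1 held 1 read in all. The difference between numbers was larger than that between labels. The row was 25.9-fold higher in rRNA-depleted 2 than in rRNA-depleted 1, with 3 counts taken for the latter. That ratio leaves out the counting error in rRNA-depleted 2. The row was 42.0-fold higher in polyA-enriched 2 than in polyA-enriched 1, with a counting interval of 7.08 to 1706 because of the single read in the denominator.

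This pattern was not restricted to the histone copy. In 118 rows, 54 of them protein-coding, both libraries numbered 1 held at most 1 count and both libraries numbered 2 at least 10, and in 0 rows was it the other way round. Of the 54, 25 had an annotated exon length of at most 750 bp, as His2B:CG33868 has. Among all 9134 protein-coding genes with at least 10 counts in 2 libraries, 159 measured at most 500 bp and 482 more than 500 and up to 750 bp. The median change between the numbers over those 482 genes went the other way, as given below.

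The replacement histone genes were well covered, with 660 to 24330 counts in every library. His3.3B was the most abundant, at 1223 CPM averaged over the 4 libraries, followed by His4r at 348 CPM, His2Av at 101 CPM and His3.3A at 93.8 CPM. Each of the 4 was 1.52 to 2.17-fold higher in the library numbered 1 than in that numbered 2 of the same label. None was called between the labels.

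His3.3B, the larger source of H3.3 mRNA (X, 9152523 to 9156669, minus strand, up to 3 exons), held 24330 and 10097 counts in rRNA-depleted 1 and 2. It held 20801 and 10107 counts in polyA-enriched 1 and 2. This was 1702, 832, 1505 and 854 CPM in the same order. The gene ranked 39th, 165th, 49th and 136th among all rows in these libraries. Both libraries numbered 1 were high and both numbered 2 low, and the labels overlapped completely.

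His3.3A, the second H3.3 gene (2L, 5055058 to 5056149, plus strand, 2 exons), held 1683, 660, 1773 and 886 counts in the same order of libraries. In CPM it was at 118, 54.4, 128 and 74.8. Here too the libraries numbered 1 were high, and within each number the polyA-enriched library was the higher one. His3.3A lies on the same chromosome arm as the canonical array but outside it.

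His4r, the H4 gene outside the array (3R, 14625755 to 14626614, plus strand, up to 3 exons), held 6188, 3223, 6297 and 2832 counts, or 433, 265, 456 and 239 CPM. The labels overlapped, and the order within a number differed, with the polyA-enriched library higher in number 1 and the rRNA-depleted library higher in number 2. H4 protein is the same whichever gene it comes from, so His4r was the only counted source of H4 mRNA in a table in which all 22 canonical His4 rows were empty.

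His2Av (3R, 26866929 to 26869220, plus strand, up to 5 exons) held 1720, 961, 1762 and 933 counts, or 120, 79.1, 127 and 78.8 CPM. Of the 4 genes it differed least between the labels, with both same-numbered pairs within 8 CPM of each other.

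**Figure D2:**
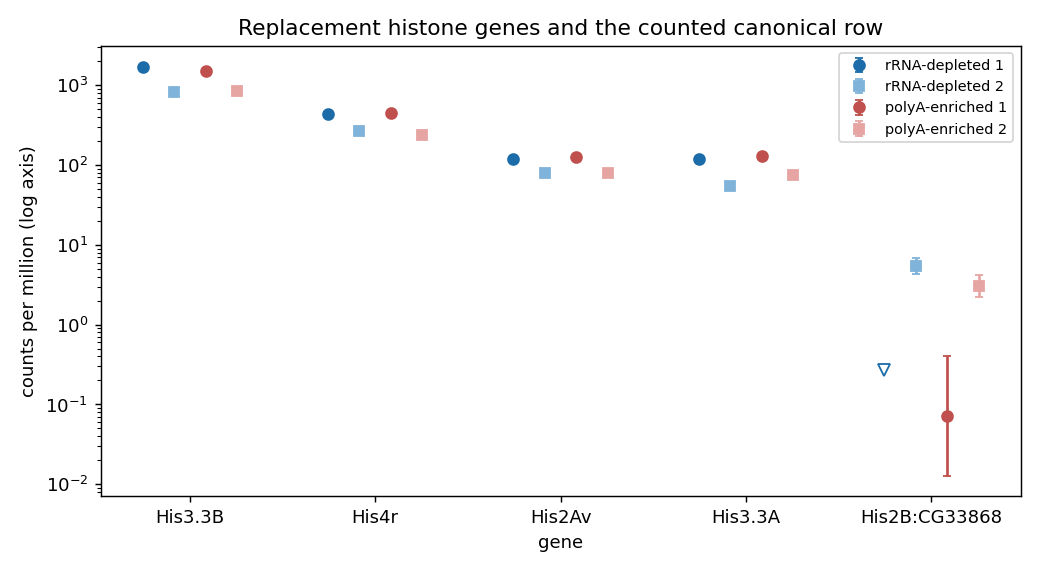
CPM on a log axis for the 4 replacement genes and His2B:CG33868 in each of the 4 libraries, with 95% Wilson intervals as bars and the upper limit of the empty library as an open triangle. Circles (number 1) lie above squares (number 2) for every replacement gene and below them for the canonical row.

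Divided by annotated exon length, the order of the levels changed in part. His3.3B was at 479 ± 175 CPM per kb (SD over the 4 libraries of both labels) and His4r at 438 ± 140. Within a library His3.3B was the higher one except in rRNA-depleted 2, at 326 against 333. His3.3A was at 93.6 ± 34.9 and His2Av at 82.9 ± 21.3 CPM per kb. Within a library His3.3A was the higher one, again except in rRNA-depleted 2, at 54.2 against 64.7. The upper and the lower pair of genes did not overlap: the lowest value of the upper pair was 301 CPM per kb and the highest of the lower pair 128. The exon length used is the union over annotated isoforms, 2552 bp for His3.3B, 1224 bp for His2Av, 1002 bp for His3.3A and 796 bp for His4r. For His3.3B it includes 3′ UTRs that range from 874 to 1589 bp between isoforms, so a level per kb understates a gene whose shorter isoforms dominate.

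The replacement genes were compared between the labels in an edgeR quasi-likelihood fit over all 9737 genes that reached 10 counts in 2 or more libraries. Calls required a Benjamini-Hochberg adjusted p under 0.05 together with a log2 change above 1 or below -1. In this fit 0% of all genes tested were called higher and 0% were called lower under the rRNA-depleted label, with 1103 genes at an unadjusted p under 0.05. DESeq2 on the same counts called 0.0205% higher and 5.61% lower. A second edgeR fit took the library number as a block, because total RNA was split between the preparations. It called 0.349% of genes higher and 12.1% lower. Of the 4 replacement genes, 0 were called in either direction in each of these 3 fits, and none was at an unadjusted p under 0.05 in the fit without the block. With the block His3.3A had an unadjusted edgeR p of 0.0441, and the other 3 genes were above 0.05. In that fit 3791 of all 9737 genes were at an unadjusted edgeR p under 0.05.

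The sizes were small beside their errors. Without the block, the log2 fold change of rRNA-depleted over polyA-enriched was 0.14 (SE 0.46) for His3.3B, 0.06 (SE 0.43) for His4r, -0.00036 (SE 0.34) for His2Av and -0.20 (SE 0.47) for His3.3A, each with an edgeR adjusted p of 1.00. With the block the errors were smaller. The values were then 0.12 (SE 0.099) for His3.3B, 0.09 (SE 0.096) for His4r, 0.01 (SE 0.11) for His2Av and -0.23 (SE 0.11) for His3.3A. The lowest of the blocked edgeR adjusted p values was 0.117, for His3.3A. The median over all genes tested was 0.04 in both fits.

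For His2B:CG33868, the only canonical row that could be tested, the log2 fold change was 0.89 (SE 2.41, edgeR adjusted p = 1.00) without the block and 0.85 (SE 0.43, edgeR adjusted p = 0.13) with it. It was called in none of the 3 fits. The row passed the count minimum only through the libraries numbered 2, and its fitted values depend on how counts of 0 and 1 are handled.

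**Figure D3:**
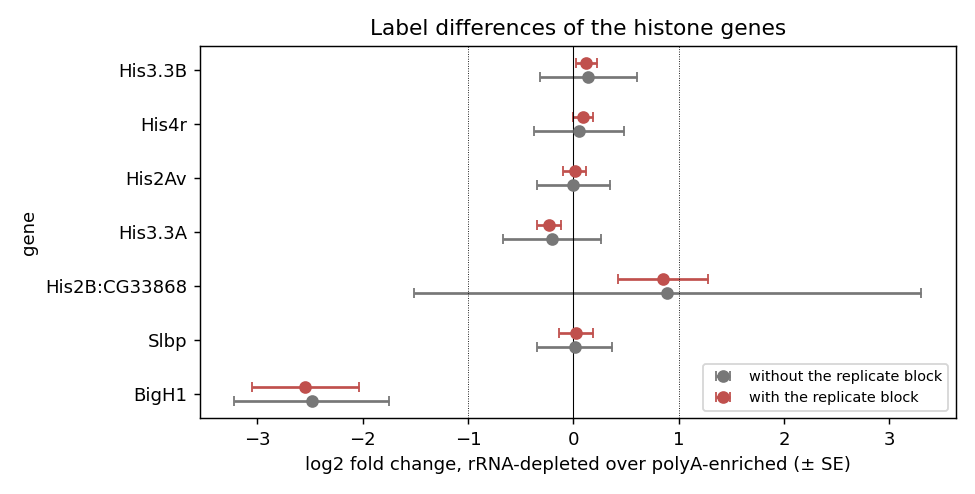
Log2 fold change of rRNA-depleted over polyA-enriched libraries (horizontal axis, ± SE from edgeR) for the histone genes and Slbp, without (grey) and with (red) the replicate block. The replacement genes and Slbp lie within 0.24 of 0. BigH1, which was kept only through its counts in the polyA-enriched libraries, lies near -2.5 in both fits.

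Summed over members, the labels were equally hard to separate. The 4 replacement genes together were at 2373 and 1230 CPM in rRNA-depleted 1 and 2, and at 2216 and 1247 CPM in polyA-enriched 1 and 2. The means were 1802 ± 808 and 1731 ± 686 CPM (SD, n = 2 each), a log2 ratio of 0.06, with p = 1.00 in an exact two-sided permutation test over the 4 libraries. That test cannot go below 0.333 with 2 libraries against 2. The summed canonical rows, which are His2B:CG33868 alone, averaged 2.72 ± 3.84 CPM and 1.56 ± 2.1 CPM (SD, n = 2 each), with an exact permutation p of 1.00. The direction of the canonical value rests on single libraries: its log2 ratio was 0.80 with all 4 libraries, -0.16 without polyA-enriched 1, 5.23 without polyA-enriched 2 and 1.80 without rRNA-depleted 1.

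Canonical counts per 1000 replacement counts, a ratio within a library that no library size enters, were 0 and 4.42 in rRNA-depleted 1 and 2, and 0.0326 and 2.44 in polyA-enriched 1 and 2. The ratio did not differ between the labels beyond its spread (exact two-sided permutation p = 1.00). Both libraries numbered 2 were high and both numbered 1 low in each label.

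The share of each gene within the replacement set was steadier than its level. His3.3B made up 67.6 to 71.7% of the counts of the 4 genes, His4r 18.2 to 21.6%, His2Av 5.07 to 6.43% and His3.3A 4.4 to 6.0%. Of all H3.3 counts, His3.3A made up 6.47% (6.18 to 6.78) in rRNA-depleted 1 and 6.14% (5.70 to 6.60) in rRNA-depleted 2, against 7.85% (7.51 to 8.21) in polyA-enriched 1 and 8.06% (7.57 to 8.58) in polyA-enriched 2. The rRNA-depleted libraries were lower by 1.65 percentage points on average, by 1.38 in the pair numbered 1 and by 1.92 in the pair numbered 2, and the groups did not overlap. The exact two-sided permutation p was 0.333, the smallest that 2 against 2 libraries allow. This share was examined after the values of both genes were seen.

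The difference between numbers was next set beside the same ratio in other genes. The log2 ratio of CPM in library 2 over library 1 was -1.03 for His3.3B, -1.11 for His3.3A, -0.71 for His4r and -0.60 for His2Av in the rRNA-depleted libraries. In the polyA-enriched libraries it was -0.82, -0.78, -0.93 and -0.69 in the same order. All 4 genes were thus lower in the libraries numbered 2 in both labels, by more than any of them differed between the labels of 1 number. Over 9134 protein-coding genes tested, the median of this ratio was -0.0035 in the rRNA-depleted and -0.06 in the polyA-enriched libraries.

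The ratio moved with exon length throughout the table. Its median was -0.61 and -0.70 (rRNA-depleted, then polyA-enriched) over 482 genes of more than 500 and up to 750 bp, -0.41 and -0.49 over 744 genes of the class just above 1000 bp, which holds His2Av and His3.3A, -0.03 and -0.08 over 1277 genes of more than 2000 and up to 2600 bp, and 0.59 and 0.70 over 469 genes of more than 8000 bp. Short genes were therefore lower and long genes higher in the libraries numbered 2. The part of this length trend in the values of the histone genes was not tested.

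Within genes of similar length, the 4 replacement genes took different places. His2Av stood at the 36.6th and 35.3rd percentile (rRNA-depleted, then polyA-enriched) and His4r at the 36.9th and 25.4th, inside the bulk of their length class. His3.3A stood at the 11th and 27.3rd percentile. His3.3B was lower than most genes of its annotated length, at the 3.13th and 5.32nd percentile. For His2B:CG33868 no percentile is given, since the row passed the count minimum only through the libraries numbered 2, which fixes the direction of its ratio. The percentiles describe these libraries and carry no test, since each label has 1 library of each number.

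**Figure D4:**
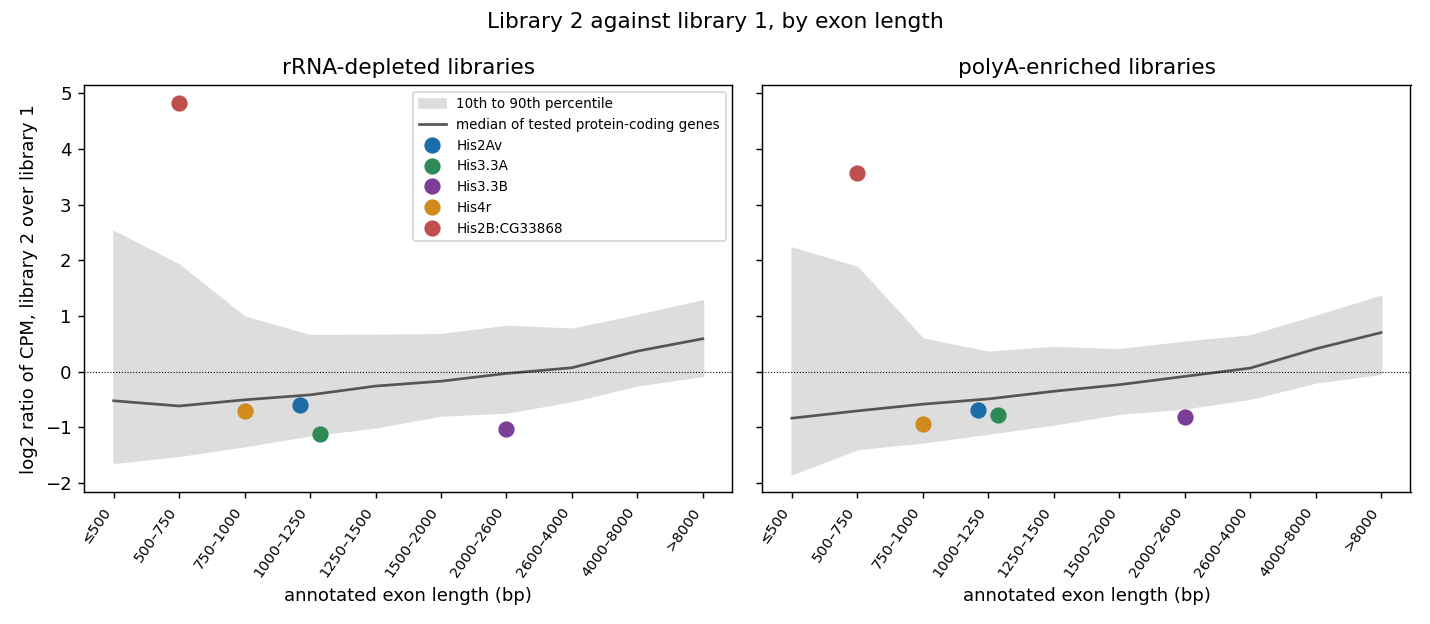
Log2 ratio of CPM in library 2 over library 1 (vertical axis) by annotated exon length class in bp (horizontal axis) for the rRNA-depleted (left) and polyA-enriched (right) libraries; the line is the median of tested protein-coding genes, the grey band their 10th to 90th percentile, and points are histone genes. All 4 replacement genes lie below 0 and His2B:CG33868, which was kept only through its counts in library 2 and is plotted after 0.2 CPM was added to each value, lies above 0.

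Of the histone genes outside both classes, BigH1 and cid were examined. BigH1 encodes a linker histone of the germ line and early embryo, and cid the H3 variant of centromeres. BigH1 (3R, 14663450 to 14664822, plus strand) held 3 and 7 counts in rRNA-depleted 1 and 2, against 33 and 27 in polyA-enriched 1 and 2, and the groups did not overlap. The row passed the count minimum only through the polyA-enriched libraries, which fixes the direction of its change. Its log2 fold change was -2.54 (SE 0.51, edgeR adjusted p = 3.81e-05) with the block, so that it was called lower, 5.83-fold, under the rRNA-depleted label. Without the block it was -2.48 (SE 0.74, edgeR adjusted p = 0.27) and not called, and DESeq2 gave an adjusted p of 0.52. In fits without the block it was -1.89 without rRNA-depleted 1 and -3.43 without rRNA-depleted 2, and it was called in neither. The summed level of germ line markers was also lower under the rRNA-depleted label, though not every marker was. It was 4.13 and 3.87 CPM in the rRNA-depleted and 11.1 and 15.4 CPM in the polyA-enriched libraries, with the largest difference in nos, a translational repressor of the germ line, with 1, 3, 86 and 83 counts. The nos row, too, passed the count minimum only through the polyA-enriched libraries. Of the 7 germ line markers, 3 were tested, and 1 of the others was at 0 in all libraries. With the block 2 were called lower and 1 higher, beside 12.1% lower and 0.349% higher over all genes tested. The marker called higher, Mst77F, held 39, 15, 22 and 2 counts in the same order of libraries. The part of the germ line markers in the BigH1 difference was not tested. The gene cid held 6, 0, 14 and 1 counts and did not pass the count minimum.

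The genes that form and cut the ends of canonical histone mRNA were all detected, and none was called between the labels. Slbp, which binds the stem-loop, held 312, 177, 324 and 164 counts in rRNA-depleted 1 and 2 and polyA-enriched 1 and 2, and its log2 fold change was 0.03 (SE 0.16, edgeR adjusted p = 0.92) with the block. Slbp was lower in both libraries numbered 2, as were the replacement genes. Of the 12 genes of this list, 11 were tested and 0 were called in either direction in all 3 fits. Over all genes, 12.1% were called lower with the block and 5.61% with DESeq2. The list's median log2 fold change was 0.05 with the block. The 4 most abundant were mute, mxc, Sym and Snp. The products of mute and mxc are parts of the histone locus body, Sym is symplekin, a scaffold of the cleavage complex, and Snp is an exonuclease that can digest stem-loop RNA. Snp was at 19.6, 23.1, 36.3 and 33 CPM in the same order of libraries, with a log2 fold change of -0.65 (SE 0.14, edgeR adjusted p = 0.000168) with the block. It passed the p threshold there but stayed inside the fold threshold. The U7 row held 2, 12, 2 and 7 counts and did not pass the count minimum.

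Of histone chaperone and deposition genes, 21 were tested, 0 were called without the block and 1 was called lower with it, beside 12.1% of all genes. The called gene (FBgn0030054) encodes the largest subunit of CAF-1, the complex that places H3 and H4 behind replication forks. It held 24 and 61 counts in the rRNA-depleted and 85 and 114 in the polyA-enriched libraries. Its log2 fold change was -1.26 (SE 0.26, edgeR adjusted p = 7.5e-05) with the block and -1.16 (SE 0.70, edgeR adjusted p = 0.94) without it. The most abundant genes of the list, Dek, dom, Chd1 and XNP, differed by 0.03 to 0.25 on the log2 scale with the block and stayed inside the fold threshold. XNP and Chd1 are remodelers that act in H3.3 deposition, and dom is the remodeler that exchanges His2Av. The median of the list was 0.07 with the block, beside 0.04 over all genes.

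Chromatin proteins with polyadenylated mRNAs, taken as a further list, included 22 tested genes, of which 0 were called in any of the 3 fits, beside 12.1% of all genes called lower and 0.349% higher with the block. Their median log2 fold change was 0.29 with the block. The most abundant were E(bx) and brm, subunits of chromatin remodelers, the trithorax gene trx and the HMG-box gene Dsp1. The median log2 ratio of library 2 over library 1 in this list was 0.50 in the rRNA-depleted and 0.43 in the polyA-enriched libraries, with 4 and 5 of the 22 genes below 0. Exon length moved with this ratio over the whole table, and its part here was not tested.

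Replication genes, whose products work in the phase in which canonical histones are made, were scarce in all libraries. The 22 genes of the list together were at 124 and 122 CPM in rRNA-depleted 1 and 2 and at 159 and 167 CPM in polyA-enriched 1 and 2. The most abundant, E2f2, geminin, RfC4 and dpa, were at 8.74 to 25.6 CPM, and none of these 4 was called. With the block 8 of the 22 were called lower under the rRNA-depleted label and 0 higher, beside 12.1% of all genes called lower. Of the 8, RnrS, Orc1, Mcm7 and Mcm2 passed the count minimum only through the polyA-enriched libraries, which fixes the direction of their change. Without the block edgeR called 0 of the 22, and DESeq2 called 1 lower, RnrS. Their median log2 fold change was -0.60 with the block.

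RnrS, the small subunit of the reductase that makes deoxyribonucleotides, held 4 and 5 counts in the rRNA-depleted and 65 and 47 in the polyA-enriched libraries, without overlap. It was lower by 12.0-fold in the fit with the block (log2 fold change -3.59, SE 0.45, edgeR adjusted p = 5.74e-10). The phosphatase stg, which starts mitosis, held 10 and 15 against 81 and 69 counts, with a log2 fold change of -2.56. Orc1 and Orc2, subunits of the origin recognition complex, were at -2.53 and -1.53. The helicase subunits Mcm7 and Mcm2 were at -2.11 and -2.06, and DNApol-alpha180 and PCNA, of the polymerase machinery, at -1.83 and -1.74. All of these lie below 6 CPM in every library.

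**Figure D5:**
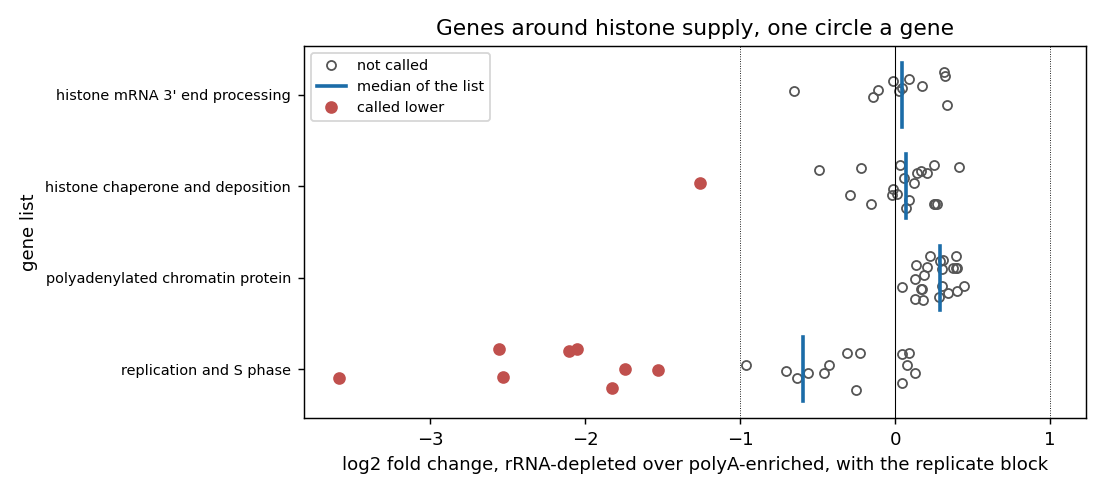
Log2 fold change of rRNA-depleted over polyA-enriched libraries in the edgeR fit with the replicate block (horizontal axis) for the tested genes of 4 lists, 1 circle a gene, with the list's median as a blue line. Filled circles are called genes, 8 in the replication list and 1 in the chaperone list, all lower. RnrS, Orc1, Mcm7 and Mcm2 were kept only through their counts in the polyA-enriched libraries.

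Part of the other marker lists moved with the replication genes. Of 8 markers of dividing neural cells other than stg, 6 were tested and 4 were called lower with the block, beside 12.1% of all genes. Their summed level was 8.6 and 17.8 CPM in the rRNA-depleted and 44.2 and 54.8 CPM in the polyA-enriched libraries. CycB, a mitotic cyclin, held 10, 22, 311 and 213 counts. The neuroblast gene ase, a defining marker of dividing neural stem cells, was at 0 in all 4 libraries, and wor, another, held 0, 2, 1 and 1 counts. The neuroblast genes dpn, with 22, 13, 18 and 8 counts, and mira, with 24, 109, 18 and 129, were detected and not called, at 0.44 and -0.04 on the log2 scale with the block. Most photoreceptor, fat body and muscle markers were lower in the same libraries, while germ line markers were called in both directions, as given above. The part of these tissues in the replication values was not tested. In bulk samples, fewer cells of a type and less RNA per cell cannot be told apart. The methods state that total RNA was split but do not tie each library number to 1 extract. The share of each cell type, the label and the amount of RNA used therefore cannot be told apart here.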

How the data were processed

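RNA-seq libraries of adult Drosophila brain, 2 labelled rRNA-depleted and 2 labelled polyA-enriched, were analysed from the table of raw counts per gene that the authors deposited. Per the submitters' processing notes and the study's methods, reads were checked with FastQC, trimmed with Trimmomatic, aligned to dm6 with STAR and counted with featureCounts. The strand setting, the annotation used and the treatment of reads that fit several copies are not given in the sources used here. The library kit keeps strand.

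Of 16729 rows, 4 were left out because they did not hold a whole number in every count column. Of the other 16725, 16498 were matched to the BDGP6.54.115 annotation for position, exon length and class. CPM were computed on library totals of 11838449 to 14295047. The main test was edgeR 4.0.16 (quasi-likelihood, TMM, R 4.3.3) on genes that reached 10 counts in 2 or more libraries. The SE was taken as log2 fold change over the root of the F statistic. The alternatives were the replicate block, DESeq2 1.42.0, other scalings, filters and thresholds, rRNA genes left out, and each library left out. Single values were tested by exact permutation over libraries. The edgeR fits without and with the block and the DESeq2 fit were tested on simulated data, and the other alternatives were not. The simulated data held no difference between library numbers, unlike the libraries.

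The pairing by number comes from the methods, which state that total RNA was split, and from the numbers that both groups carry. The methods do not tie each number to 1 extract. Centred log2 values of libraries with the same number correlated across 9737 genes at r = 0.90. Any difference between the numbers that both labels share gives such a value. It therefore cannot tell whether same-numbered libraries came from 1 extract. The libraries are called biological replicates by the study, and p values without the block set the label difference against the spread between them. The block takes the difference between numbers out. Its p values set the label difference against how much that difference varies between the pairs, and they rest on the pairing assumed here. In both edgeR fits the spread of a gene is estimated in part from other genes. With so few libraries the p values depend strongly on that.

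Members and gene lists were chosen with earlier results of these data known. Text names every replacement gene, canonical rows that passed the count minimum (no other canonical row had a count), BigH1, cid, Slbp, and in each list the 4 most abundant genes and called genes, at most 8. Genes such as nos, CycB, dpn, mira, ase and wor, named beside a result, were chosen after their values were seen. No histone sequence is printed.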

Additional observations from a re-analysis of the deposited data

How the results depend on the processing

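The number of genes called over the whole table was 0 in the edgeR fit without the block and 1214 with the replicate block, 548 with DESeq2, 255 with no filter on low counts and 153 with at least 10 counts in all 4 libraries, and it ranged from 0 to 457 when 1 library was left out. It was 457 without rRNA-depleted 2 and 377 without polyA-enriched 2, and 0 without either other library. No replacement gene was called under any of 13 alternatives, and no canonical row under any of the 10 that could test one. The log2 ratio of summed CPM ranged from -0.16 to 5.23 for canonical rows and from -0.49 to 0.53 for replacement genes when 1 library was left out. The replacement value fell below 0 without rRNA-depleted 1 and, at -0.30, without polyA-enriched 2. It was 0.04 within pairs. The log2 ratio of canonical to replacement counts, 0.84 with all libraries, ranged from -0.14 to 6.08. Without rRNA-depleted 2 the last library of that label is at 0, so neither canonical ratio has a value. Without the row of the highest total the canonical sum is 0 in all libraries, and no paired canonical ratio was possible because rRNA-depleted 1 is at 0. The log2 fold change of His2Av, at -0.00036, was 0.013 with the replicate block, 0.011 with at least 10 counts in all 4 libraries, 0.0762 both with DESeq2 size factors and with DESeq2, and 0.0711 with no filter. That of Slbp was -0.035 with library totals. With 1 library left out, values ranged from -0.30 to 0.42 for His2Av, -0.79 to 0.28 for His3.3A, -0.39 to 0.65 for His3.3B, -0.33 to 0.63 for His4r, -0.31 to 0.48 for Slbp, -3.43 to -1.89 for BigH1 and -0.10 to 1.90 for His2B:CG33868. The His3.3A share of H3.3 counts, a comparison chosen after seeing the data, differed by -1.82 to -1.49 percentage points. In those fits the lone library of a label is assumed to vary like the others. The cause of these changes was not tested. Beyond BigH1, the CAF-1 gene and the 8 replication genes, the block added no call among the histone genes and the pathway lists, the cell type markers aside. With 2 libraries a label, a permutation p cannot reach 0.05, and counts of single copies depend on how reads shared between copies were assigned.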
